A study of Mus musculus with 3 samples.

Results

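The 8 genes described here mark the epithelial cells that cover the ovary and other organs of the body cavity: the keratin genes Krt7, Krt8, Krt18 and Krt19, the uroplakin gene Upk3b, the mesothelin gene Msln, the leucine-rich repeat membrane gene Lrrn4 and the tetraspan membrane gene Tm4sf5. They are known surface epithelium and mesothelium genes that were listed with earlier results of these data in view, 8 of the 18738 genes listed in any of the 3 count tables, and all 8 were found in each. Single-cell RNA-seq (10x Genomics 3′ chemistry) was run on fetal ovarian somatic cells (FOSCs) of 3 production lots, named 26, 29 and 30. Each lot pooled E12.5 ovaries from the embryos of 10 pregnant CD1 mice. The mesonephros, the transient kidney beside the gonad, was cut away, the tissue was dissociated with trypsin, cells binding antibodies to SSEA1 (a germ cell antigen) and CD31 (an endothelial antigen) were depleted on magnetic columns, and the remainder was frozen and later thawed. All 3 lots had this one treatment, so the comparisons lie between cell types within lots and between lots.

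Keratins are the intermediate filament proteins of epithelial cells and assemble as pairs of a type I and a type II chain. KRT7 and KRT8 are type II chains and KRT18 and KRT19 are type I chains, and KRT8 with KRT18 is the pair found in simple, single-layered epithelia. Upk3b encodes a uroplakin that is a marker of mesothelium, the flat epithelium lining the body cavities, Msln encodes a glycoprotein anchored on the mesothelial surface, and Lrrn4 is also used as a mesothelial marker. In the fetal ovary the coelomic epithelium becomes the surface epithelium, and pre-granulosa cells, the somatic cells that will enclose oocytes, lie inside it.

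By the GRCm38 annotation, Krt7 (chr15:101411043-101430313), Krt8 (chr15:101996698-102004482, minus strand) and Krt18 (chr15:102028180-102032027) lie close together on chromosome 15, while Krt19 (chr11:100140810-100148665, minus strand) and Tm4sf5 (chr11:70505244-70511178) are on chromosome 11. Upk3b is at chr5:136038496-136046487, Lrrn4 at chr2:132868305-132880891 on the minus strand and Msln at chr17:25748613-25754378 on the minus strand. Krt7 shares 1269 bases with the antisense gene Gm671 and Krt8 shares 271 bases with Gm36026, both on the opposite strand and neither listed in the count tables. Whether counting used strand is not given in the sources used here, so reads of these partners cannot be told apart from those of Krt7 and Krt8.

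The upstream promoter sequences of 4 members are shown because they stand at the ends of the contrast described below: Upk3b and Tm4sf5 differed most between epithelial-like and pre-granulosa-like cells, whereas Krt8 and Krt18 were abundant in both. Each is the 250 bases before the RefSeq start of the gene (GRCm38.p6), read 5′ to 3′ on the gene's strand, with capitals on matches to the motifs named after them.
Upk3b, chr5:136038246-136038495, plus strand: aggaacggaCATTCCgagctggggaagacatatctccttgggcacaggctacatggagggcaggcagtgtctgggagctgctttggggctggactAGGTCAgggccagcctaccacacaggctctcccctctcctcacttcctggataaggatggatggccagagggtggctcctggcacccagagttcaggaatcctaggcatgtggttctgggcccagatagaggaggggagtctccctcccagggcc
Tm4sf5, chr11:70505024-70505273, plus strand: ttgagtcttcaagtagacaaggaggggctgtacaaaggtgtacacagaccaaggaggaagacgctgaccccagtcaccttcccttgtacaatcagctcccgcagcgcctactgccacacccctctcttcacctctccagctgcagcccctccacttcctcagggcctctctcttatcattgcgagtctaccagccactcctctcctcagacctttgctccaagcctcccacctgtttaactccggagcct
Krt8, chr15:102004343-102004592, minus strand: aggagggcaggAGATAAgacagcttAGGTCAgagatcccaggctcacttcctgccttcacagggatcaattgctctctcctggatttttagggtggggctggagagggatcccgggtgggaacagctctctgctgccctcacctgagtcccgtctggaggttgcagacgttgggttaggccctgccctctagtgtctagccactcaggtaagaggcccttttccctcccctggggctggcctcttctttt
Krt18, chr15:102027966-102028215, plus strand: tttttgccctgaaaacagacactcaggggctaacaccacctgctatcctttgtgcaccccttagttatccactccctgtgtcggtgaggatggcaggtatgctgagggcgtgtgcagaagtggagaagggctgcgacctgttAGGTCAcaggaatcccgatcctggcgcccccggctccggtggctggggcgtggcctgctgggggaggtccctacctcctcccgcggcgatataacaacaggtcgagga

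RefSeq windows matched 6 of the 8 members, those 4 with Krt7 and Lrrn4, and 6 motifs were searched on both strands. AGGTCA, the core that nuclear receptors bind, lay in the windows of Upk3b, Lrrn4, Krt8 and Krt18, and in 14% of all 32851 windows. CATTCC, the core bound by TEAD factors, lay in those of Upk3b and Lrrn4 and in 12.6% of all windows. The motif AGATAA, bound by factors of the GATA family, lay in that of Krt8 and in 9.99% of all windows. GGGCGG, the GC box, had 4 matches in the Krt7 window and none in the other 5, and 32.7% of all windows held it. TATAAA, the TATA box, and TGANTCA, the AP-1 motif, were in none of the 6 windows and in 12.4% and 6.75% of all windows. The Tm4sf5 window held none of the 6 motifs. These are matches of letters only.

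The count tables held 87494974 to 141920060 UMIs per lot (unique molecular identifiers, each 1 captured RNA molecule), and 28971 of 29103 barcodes passed the filters on genes and mitochondrial reads. Kept cells had a median of 8949 to 11595 UMIs, lot 29 being the lowest. Lots shared 20 to 30 barcodes pairwise, at most 0.350% of the smaller lot. Cells were grouped into 22 clusters without the 8 members and without the related genes listed below, and clusters were named from other markers. The epithelial-like class held 6009 cells, 1607, 1959 and 2443 in lots 26, 29 and 30, making 16.5%, 22.9% and 22.8% of each lot's kept cells. Its naming markers, which were chosen for this purpose and carry no test, were highest in it among epithelial-like, pre-granulosa-like and stromal-like cells for 7 of 8 genes. Bnc1, a zinc finger gene of mesothelium, averaged 39.3 CPM (counts of the gene per 1000000 UMIs of the class and lot) in epithelial-like cells, against 4.66 CPM for the pre-granulosa-like class and 3.86 CPM for the stromal-like class. The eighth, Nkain4, was higher in stromal-like cells (28.2 CPM) than in epithelial-like cells (7.91 CPM). Other lineages' naming genes were also present: the summed level of 10 stromal markers was 861 to 1122 CPM in epithelial-like cells and 2989 to 3389 CPM in stromal-like cells, and that of 9 pre-granulosa markers was 798 to 1112 CPM in epithelial-like cells and 3823 to 4463 CPM in pre-granulosa-like cells. The part of mixed droplets in these levels was not tested. Of the 4 pre-granulosa-like clusters, 1 held 2614 of its cells in lot 30 against 89 and 170 in lots 26 and 29, with Bst2, Hspa1a and Hspa1b as its leading genes by fold. Another held 1965, 878 and 221 cells in lots 26, 29 and 30.

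Members other than Krt8, Krt18 and Msln were highest in the epithelial-like class in every lot. Upk3b stood at 256, 226 and 217 CPM in lots 26, 29 and 30 (233 ± 20.3, SD, n = 3 lots), and no other named class exceeded 54.5 CPM in any lot. Tm4sf5 stood at 175, 193 and 166 CPM (178 ± 13.4). Krt7 stood at 194, 186 and 178 CPM (186 ± 8.01), the narrowest spread of the 8 relative to its mean. These 3 genes varied little between lots, and their ranges in epithelial-like cells lay apart from those of every other named class.

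Krt19 stood at 167, 123 and 110 CPM in epithelial-like cells (133 ± 30.1), with lot 26 the highest. Lrrn4 stood at 44.9, 33.5 and 32.4 CPM (36.9 ± 6.91), again highest in lot 26. Krt18 stood at 267, 222 and 233 CPM (241 ± 23.7). Lot 26 was thus the highest lot for all 3, as it was for Upk3b, Krt7 and Krt8, while Tm4sf5 was highest in lot 29.

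Krt8 stood at 132, 81.6 and 111 CPM (108 ± 25.2), lot 29 being the lowest. Msln was near the counting limit, with 14, 15 and 16 UMIs in the epithelial-like cells of the 3 lots, or 0.537, 0.627 and 0.390 CPM. It was seen in 0.654% of epithelial-like cells, and its 23 UMIs in pre-granulosa-like cells made 0.192 ± 0.0702 CPM. Msln did not pass the filter on low counts, so 7 of the 8 members entered the tests.

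**Figure D1:**
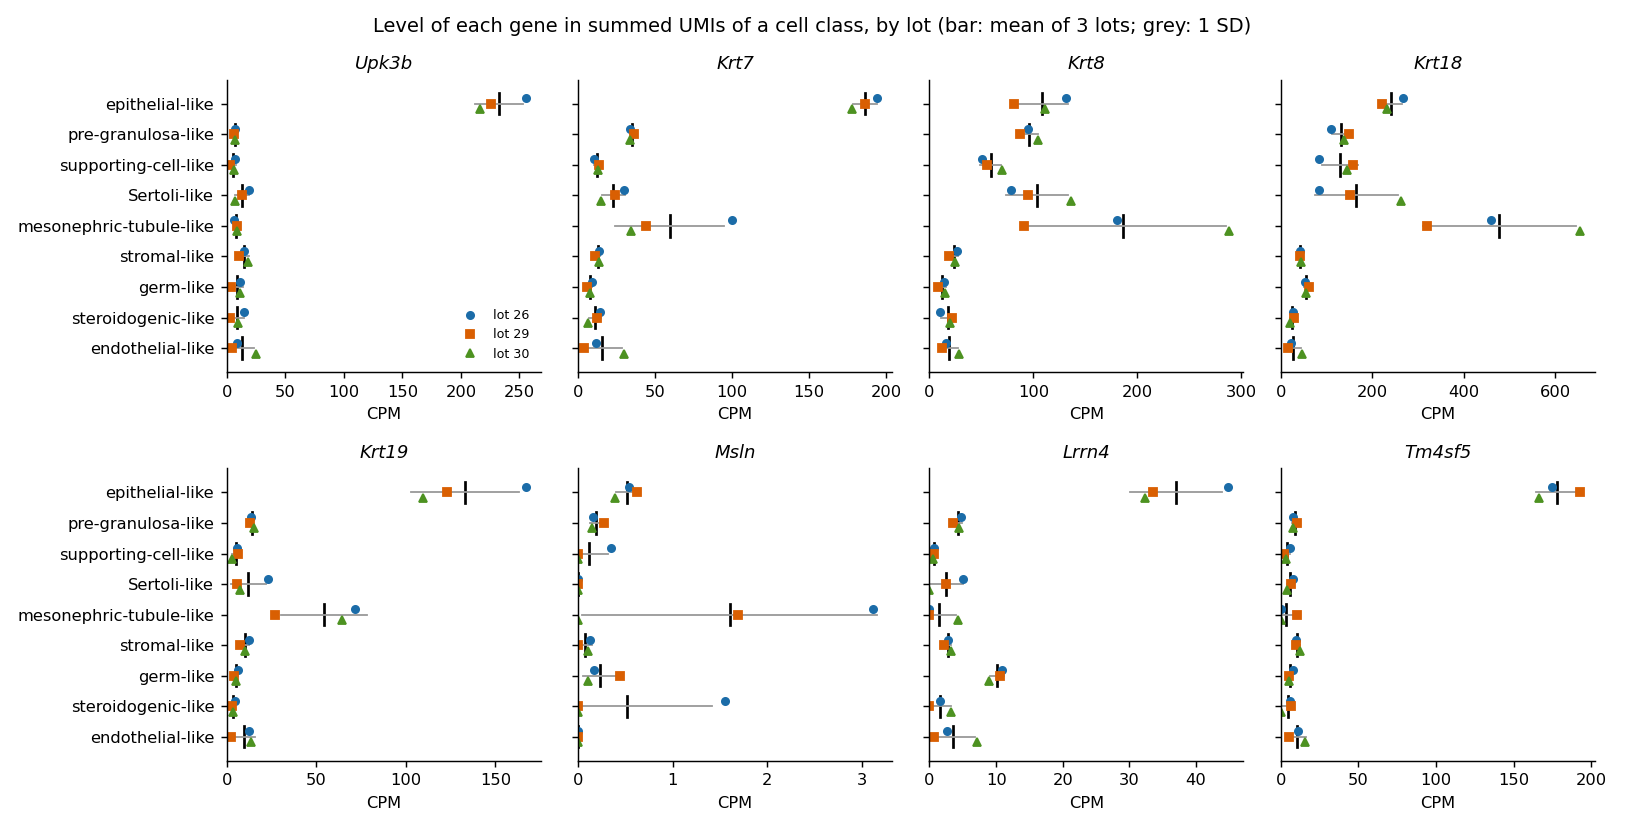
UMI counts of the 8 genes as CPM (horizontal axes, 1 panel a gene) in 9 cell classes (vertical axis), with 1 point for each of the 3 lots and a bar for the mean. Upk3b, Krt7, Krt19, Lrrn4 and Tm4sf5 peak in epithelial-like cells (233, 186, 133, 36.9 and 178 CPM), whereas Krt8 and Krt18 are also abundant in pre-granulosa-like, Sertoli-like and mesonephric-tubule-like cells.

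Counted per cell, 6 of the 8 genes were found in over 50% of epithelial-like cells before thinning. A UMI of Krt18 was found in 82.3% of them, of Upk3b in 77.0%, of Tm4sf5 in 76.6%, of Krt7 in 75.7%, of Krt8 in 60.2%, of Krt19 in 53.2% and of Lrrn4 in 34.5% (means of 3 lots). Median depth was 11090 to 14587 UMIs in epithelial-like cells and 8317 to 11213 in pre-granulosa-like cells, so shares were also taken after thinning every cell to 4000 UMIs, which left out 27 epithelial-like and 53 pre-granulosa-like cells. Upk3b was then found in 52.1% ± 2.61 of epithelial-like cells, against 2.54% ± 0.267 in the pre-granulosa-like class and 3.23% ± 0.805 in the stromal-like class. Krt8 was then found in 31.1% ± 5.68 of epithelial-like cells, close to its 28.6% ± 1.74 among pre-granulosa-like cells. The 2 genes thus differed in how they were distributed, at one fixed depth as well as in CPM.

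Endothelial-like cells, a type that should lack these genes, had a median of 14132 to 15724 UMIs and showed after thinning Upk3b in 3.34% ± 3.59, Tm4sf5 in 1.36% ± 0.326, Krt7 in 2.74% ± 1.84, Krt8 in 3.69% ± 0.860 and Krt18 in 6.41% ± 3.22 of cells. Of the endothelial-like cells 16.6% were called as doublets, the highest share of any class. By lot, their Upk3b shares were 2.89%, 0 of 87 cells, which allows a share of up to 3.45%, and 7.14%. The Upk3b shares of pre-granulosa-like and stromal-like cells were not set apart from them at this depth. Tm4sf5 shares of pre-granulosa-like (2.46%, 3.71% and 2.57%) and stromal-like cells (2.40%, 2.65% and 3.23%) were above those of endothelial-like cells (1.73%, 1.15% and 1.19%) in each lot. The Krt7 (11.3% ± 0.296), Krt8 and Krt18 (35.3% ± 3.24) shares of pre-granulosa-like cells lay above it in each lot, while their Krt19 (4.42% ± 0.191) and Lrrn4 (1.49% ± 0.246) shares lay within the range of the endothelial-like lots (2.55% ± 1.94 and 0.794% ± 1.37).

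Levels were next set relative to the epithelial-like level of the same lot. Upk3b reached 2.93% ± 0.280 of it in pre-granulosa-like cells, 6.28% ± 2.05 in stromal-like cells and 3.85% ± 1.98 in germ-like cells. The low levels were not the same for all members within a class. In germ-like cells, Krt7 and Krt19 stood at 4.00% and 3.97% of their epithelial-like level, but Lrrn4 at 27.7% and Krt18 at 23.3%. Lrrn4 in germ-like cells was 10.9, 10.5 and 8.87 CPM, above its 4.75, 3.58 and 4.35 CPM in pre-granulosa-like cells in every lot, and its range there lay apart from that of pre-granulosa-like cells. In supporting-cell-like cells, a class named from Pax8 and related genes, Krt18 stood at 84.1, 157 and 145 CPM while Lrrn4 stood at 0.689, 0.685 and 0.490 CPM. Germ-like cells had the highest median depth of these classes, 18134 to 23767 UMIs, and 13.5% of them were called as doublets.

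**Figure D2:**
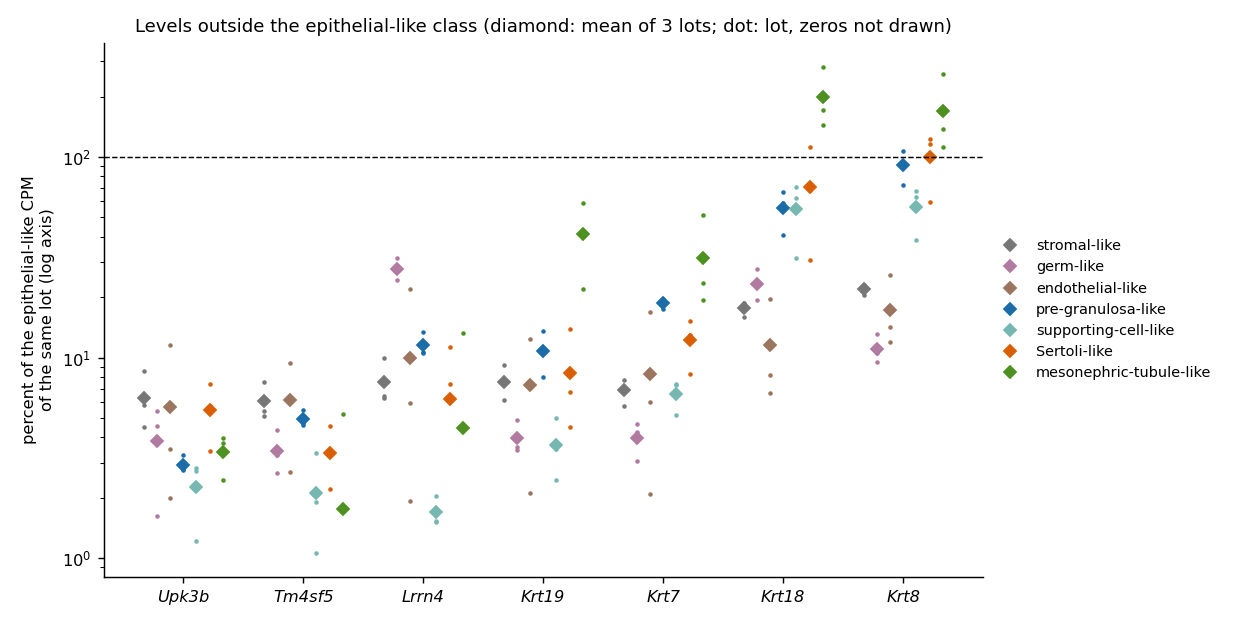
Level of 7 members in other cell classes as a percent of the epithelial-like level of the same lot (vertical axis, logarithmic), with a dot for each of the 3 lots, where above 0, and a diamond for the mean. Krt8 lies near 100% in pre-granulosa-like (mean 90.7%) and Sertoli-like cells, whereas Upk3b stays at 2.93% in pre-granulosa-like cells and Lrrn4 reaches 27.7% in germ-like cells.

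The comparison of epithelial-like with pre-granulosa-like cells asked how the surface epithelium genes are divided between these classes. The cells were dissociated, so their place in the ovary was not measured. edgeR's quasi-likelihood test was fitted to UMI sums of 11 classes in 3 lots over 12984 genes, of which 19.9% were called higher and 24.1% lower in epithelial-like cells at an adjusted p under 0.05. Of the 7 members tested, 6 were higher and none lower. Since the members were listed as epithelial genes, their direction is a description, and the test shows how it stands against the spread between lots. With 3 pooled lots and no lot term, the p-values rest on the spread of lots within classes, in a fit shared by the 11 classes. The pairing of classes by lot enters only the alternative fit with lot as a replicate block.

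Upk3b in pre-granulosa-like cells was 7.10, 6.23 and 7.05 CPM, and it was 32.8-fold higher in epithelial-like cells (log2 fold change 5.04 ± 0.28, SE, adjusted p = 4.57e-16). Tm4sf5 in pre-granulosa-like cells was 8.03, 10.6 and 7.82 CPM, and it was 19.5-fold higher in epithelial-like cells (log2 fold change 4.29 ± 0.23, adjusted p = 1.09e-16). Krt19 in pre-granulosa-like cells was 13.4, 13.2 and 14.9 CPM, and it was 9.21-fold higher in epithelial-like cells (log2 fold change 3.20 ± 0.24, adjusted p = 5.51e-13). In none of these did the lots of the 2 classes overlap. Lrrn4 was 8.34-fold higher (log2 fold change 3.06 ± 0.21, adjusted p = 1.34e-13). Krt7 in pre-granulosa-like cells was 33.9, 36.4 and 33.9 CPM, and it was 5.15-fold higher in epithelial-like cells (log2 fold change 2.36 ± 0.21, adjusted p = 2.99e-11).

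The simple-epithelium pair behaved differently. Krt18 in pre-granulosa-like cells was 109, 149 and 138 CPM, and it was 1.75-fold higher in epithelial-like cells (log2 fold change 0.81 ± 0.25, adjusted p = 0.00907). Without lot 26 this fell to 0.58 on the log2 scale, with an adjusted p of 0.101. Krt8 in pre-granulosa-like cells was 95, 86.9 and 104 CPM, inside the epithelial-like range of 81.6 to 132 CPM, and the difference was within its error (log2 fold change 0.12 ± 0.22, adjusted p = 0.691). It was higher in epithelial-like cells in lots 26 and 30 and lower in lot 29. The epithelial-like value is an average over clusters that differed in Krt8, as described below. The part of all Krt8 UMIs that came from pre-granulosa-like cells was 47.6%, against 37.6% from epithelial-like cells, whereas epithelial-like cells held 88.7% of the Upk3b UMIs, 87.1% of the Tm4sf5 UMIs, 80.0% of the Krt19 UMIs, 73.9% of the Lrrn4 UMIs and 72.9% of the Krt7 UMIs.

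The make-up of the keratins differed between the classes too. In epithelial-like cells the ratio of Krt18 to Krt8 UMIs was 2.03, 2.72 and 2.09 in the 3 lots, and in pre-granulosa-like cells it was 1.14, 1.71 and 1.32. The ratio was higher in epithelial-like cells within each lot, although lot 29 had the highest ratio in both classes. Krt19 to Krt8 separated them further, at 1.25 ± 0.261 in epithelial-like cells and 0.145 ± 0.00545 in pre-granulosa-like cells. These ratios compare 1 pair of genes across classes, and their absolute size depends on how well each transcript's 3′ end is captured.

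**Figure D3:**
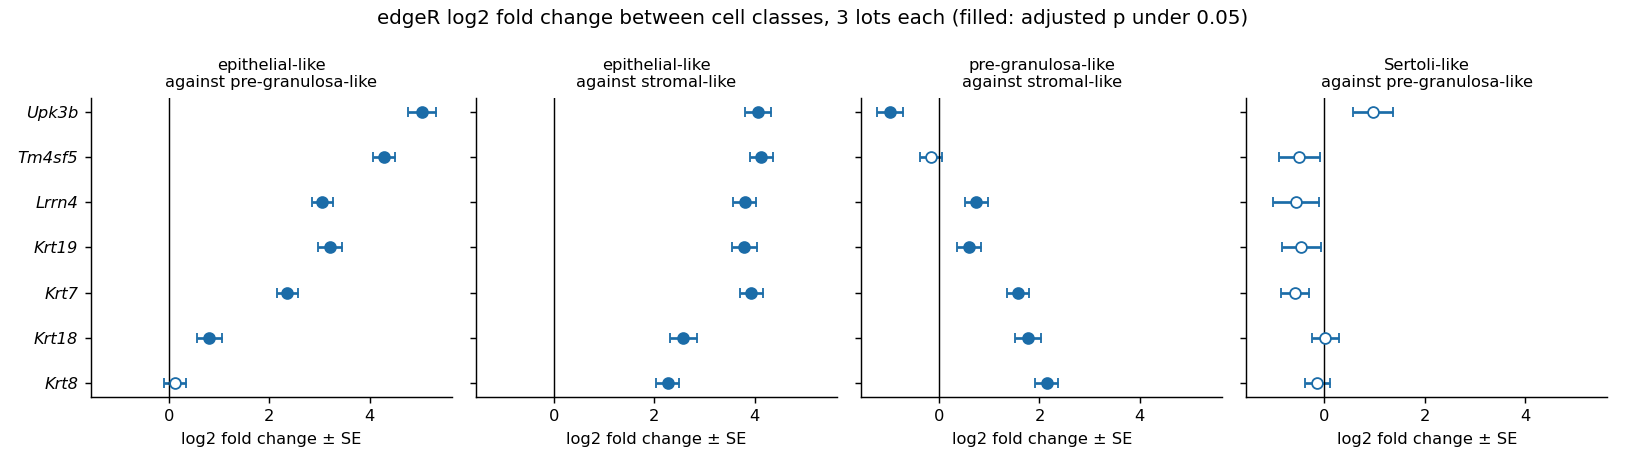
Log2 fold changes from edgeR (horizontal axes, bars show the SE) of the members in 4 comparisons between cell classes, 3 lots each, with filled points where the adjusted p was under 0.05. Against pre-granulosa-like cells, epithelial-like cells differ in 6 of the 7 genes, from 5.04 for Upk3b to 0.81 for Krt18, and Krt8 lies at 0.12.

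Between epithelial-like and stromal-like cells, which make the connective tissue of the ovary, all 7 members tested were higher in epithelial-like cells, against 13.5% of all genes called higher and 16.1% lower. Tm4sf5 was 17.5-fold higher (log2 fold change 4.13 ± 0.23, adjusted p = 1.24e-15), with 9.5, 9.88 and 12.6 CPM in stromal-like cells. Upk3b was 16.7-fold higher (4.07 ± 0.27 on the log2 scale, adjusted p = 6.21e-14), with 14.8, 10.2 and 18.5 CPM in stromal-like cells. Krt7, Lrrn4 and Krt19 were 15.3-fold, 13.9-fold and 13.8-fold higher. Krt18 was 5.97-fold higher and Krt8 4.81-fold higher (log2 fold change 2.26 ± 0.23, adjusted p = 1.17e-09). The 2 keratins of the simple-epithelium pair were again the members that differed least. With lot as a replicate block, 6543 genes were called over both directions in place of 3844, and all 7 members were among the calls in both.

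Stromal-like Upk3b counts came from few cells. In stromal-like cells, 1.62% ± 0.522 of cells had 3 or more Upk3b UMIs, and they held 55.3% ± 11.2 of the class's Upk3b UMIs. In pre-granulosa-like cells, 0.319% ± 0.0773 of cells had 3 or more, and they held 18.9% ± 3.56 of the UMIs. Of the Upk3b UMIs of epithelial-like cells, 88.2% ± 3.52 were in cells with 3 or more. Doublet calls covered 9.86% of stromal-like, 7.47% of epithelial-like and 0.995% of pre-granulosa-like cells, and their part in these few cells was not tested.

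Between pre-granulosa-like and stromal-like cells, 25.2% of all genes were called higher and 22.6% lower, and 5 of the 7 members were higher and 1 lower. Krt8 was 4.42-fold higher in pre-granulosa-like cells (log2 fold change 2.14 ± 0.23, adjusted p = 1.42e-09), with 26.9, 18.7 and 25 CPM in stromal-like cells. Krt18 was 3.41-fold higher (1.77 ± 0.26 on the log2 scale, adjusted p = 6.82e-07), and Krt7 2.97-fold higher (1.57 ± 0.21, adjusted p = 1.60e-07). For these 3 keratins the lots of the 2 classes did not overlap. Lrrn4 was 1.67-fold higher (log2 fold change 0.74 ± 0.23, adjusted p = 0.009), a call lost without lot 26 (adjusted p = 0.104) and with the held-out genes put back into the clustering (0.381). Krt19 was 1.5-fold higher (0.59 ± 0.24, adjusted p = 0.0416), a call lost in DESeq2 (adjusted p = 0.344) and without lot 29 (0.0673) or lot 30 (0.276), with RLE factors (0.101) and at clustering resolution 1.2 (0.0981). With the held-out genes put back, Krt19 stood at -0.04 (adjusted p = 0.92). Upk3b was lower in pre-granulosa-like than in stromal-like cells (log2 fold change -0.97 ± 0.26, adjusted p = 0.00205), a call lost in DESeq2 (0.0655) and without lot 30 (0.0603). Tm4sf5 did not pass the test (log2 fold change -0.16 ± 0.22, adjusted p = 0.587).

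Sertoli-like cells, the supporting cells of the testis by their markers, were present in each lot, with 90, 285 and 16 cells in lots 26, 29 and 30. Over all genes, 16.1% were called higher and 22% lower than in pre-granulosa-like cells, but none of the 7 members was called by edgeR or by DESeq2. At an unadjusted p under 0.05 edgeR gave 2 members and DESeq2 none. Krt8 stood at 78.8, 94.4 and 137 CPM in Sertoli-like cells (log2 fold change -0.13 ± 0.25, adjusted p = 0.727), and Krt18 at 82.4, 151 and 262 CPM (0.02 ± 0.28, adjusted p = 0.966). Both ranges overlapped those of pre-granulosa-like cells, and the value of lot 30 rests on 37 Krt8 UMIs and 71 Krt18 UMIs. Upk3b stood at 18.8, 12.9 and 7.39 CPM, from 26, 47 and 2 UMIs (log2 fold change 0.97 ± 0.40, adjusted p = 0.0551). With lot as a replicate block its adjusted p was 0.0115. Of the Sertoli-like cells 12% were called as doublets, and without called doublets Upk3b stood at -0.71 on the log2 scale (adjusted p = 0.169), while Krt7 (-1.21), Krt19 (-3.32) and Tm4sf5 (-1.58) were called lower, with adjusted p = 0.000334, 3.46e-05 and 0.0063.

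Mesonephric-tubule-like cells, 17, 36 and 16 in the 3 lots, are epithelial cells of another origin and had the highest Krt18 of all classes, 458, 320 and 654 CPM, apart from the epithelial-like range. Krt8 was 181, 91.1 and 288 CPM in them, which overlapped the epithelial-like range. Krt19 was 71.7, 27 and 64.5 CPM and Krt7 99.8, 43.9 and 34.4 CPM, below epithelial-like cells in every lot. Upk3b, in contrast, was 6.24, 8.43 and 8.60 CPM, from 2, 5 and 2 UMIs, and Lrrn4 had 1 UMI in all 69 cells. No test was run on this class. In order of Krt8 level, mesonephric-tubule-like, epithelial-like, Sertoli-like and pre-granulosa-like cells were neighbours whose lots overlapped, and supporting-cell-like cells (50.7, 55.4 and 70.1 CPM) came next among the named classes and lay apart from them. The unnamed cluster of low UMIs had Krt8 at 60.7, 71.6 and 70.6 CPM, which overlapped the supporting-cell-like range.

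Epithelial-like cells were not uniform. Their 4 clusters comprised a non-cycling cluster (numbered 6; 522, 522 and 846 cells in lots 26, 29 and 30), a cluster with S phase histone genes (7), a cluster with G2 and M phase genes (9) and a cluster whose leading genes by fold included S100a6, Krt19, Hand2 and Hoxd11 (10; 269, 422 and 390 cells). Krt19 was also among the leading genes of cluster 6, with Tm4sf5, Upk3b, Krt7 and Krt18. After the epithelial markers, the next-best marker list was the stromal one in cluster 10 and the pre-granulosa one in cluster 6. Median depth was 8698 UMIs in cluster 10 and 13047 in cluster 6. Krt19 is a gene of the list, so its place among these leading genes is a description even though it was left out of the clustering. The clusters are compared as ratios within lots with no test.

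Cluster 10 had more Krt19 and Lrrn4 and less of the simple-epithelium pair. Krt19 was 329, 290 and 320 CPM in cluster 10 and 176, 94.7 and 97.6 CPM in cluster 6, a ratio of 2.74 ± 0.756. Lrrn4 was 75.3, 55.5 and 56.4 CPM against 34.0, 25.3 and 29.2 CPM, a ratio of 2.12 ± 0.159. Both genes were higher in cluster 10 in each lot. Krt8 was 60.8, 47.4 and 58.3 CPM in cluster 10 and 207, 120 and 152 CPM in cluster 6, a ratio of 0.357 ± 0.0551. The Krt8 level of the pre-granulosa-like class (95, 86.9 and 104 CPM) lay above cluster 10 and below cluster 6 in every lot. Krt18 was 189, 186 and 191 CPM against 408, 333 and 314 CPM, a ratio of 0.543 ± 0.0722. Upk3b (1.15 ± 0.0655) and Tm4sf5 (1.23 ± 0.204) were higher in each lot by small ratios, and Krt7 was at 0.948 ± 0.129.

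The cycling clusters had lower levels of the keratin pair than cluster 6. In cluster 7, Krt8 stood at 0.476 ± 0.0463 and Krt18 at 0.507 ± 0.0502 of the cluster 6 level, with Krt7 at 0.633 ± 0.0468, Upk3b at 0.827 ± 0.0459 and Lrrn4 at 1.23 ± 0.139. In cluster 9, Krt8 stood at 0.759 ± 0.0816, Krt18 at 0.646 ± 0.0441 and Krt7 at 0.601 ± 0.00303. Krt8, Krt18, Krt7, Upk3b and Tm4sf5 were below cluster 6 in every lot in both clusters.

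Among pre-granulosa-like cells, cluster 2 had higher Krt18 and Krt19 than cluster 0. Krt18 was 181, 257 and 275 CPM in cluster 2 and 89.9, 112 and 117 CPM in cluster 0, a ratio of 2.22 ± 0.181. Krt19 was 29.9, 25.4 and 29 CPM against 11.6, 11.3 and 18.4 CPM, a ratio of 2.13 ± 0.504. Krt8 was at 1.21 ± 0.170, while Krt7 (0.448 ± 0.0385), Tm4sf5 (0.376 ± 0.0430) and Lrrn4 (0.363 ± 0.116) were lower in each lot. The 2 chains of the Krt8 and Krt18 pair therefore did not keep a fixed ratio within the class.

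**Figure D4:**
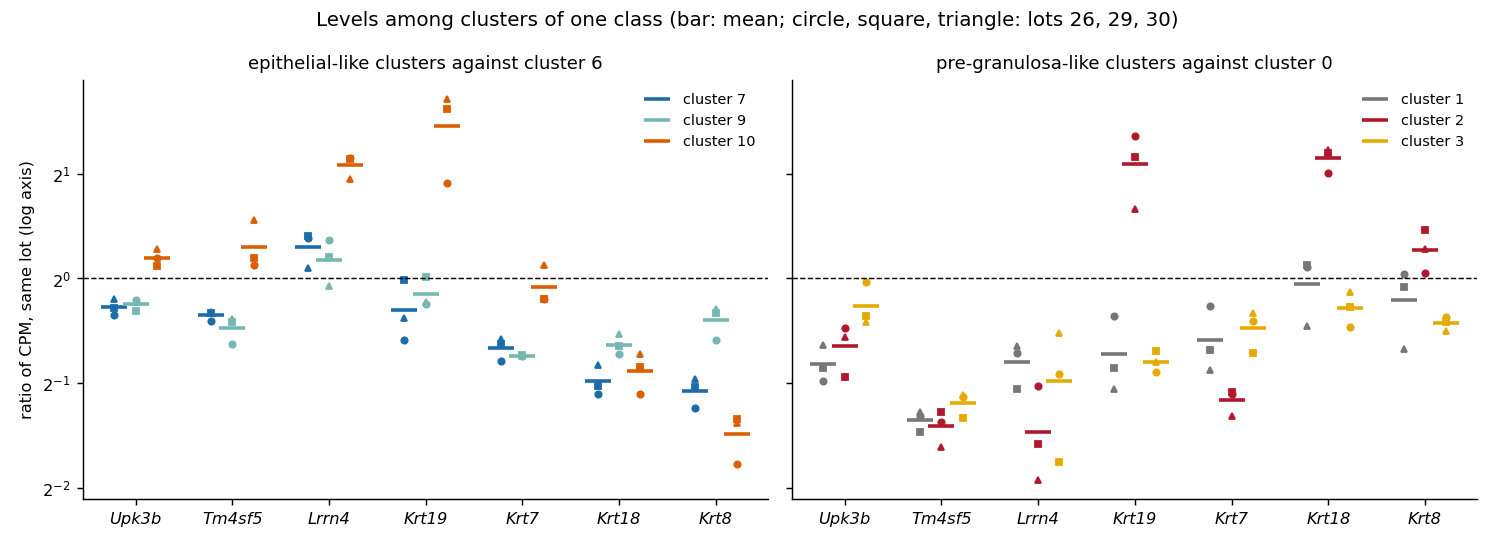
Ratios of summed CPM within each lot (vertical axis, logarithmic; points are the 3 lots, bars the means) for epithelial-like clusters 7, 9 and 10 against cluster 6, and for pre-granulosa-like clusters 1, 2 and 3 against cluster 0. In cluster 10, Krt19 lies at 2.74 and Lrrn4 at 2.12 on average while Krt8 lies at 0.357. In cluster 2, Krt18 lies at 2.22.

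Co-detection was measured as the share of cells with UMIs of both genes of a pair, after thinning to 4000 UMIs, divided by the product of the single shares, so that 1 means no more overlap than independent detection. Over the 21 pairs without Msln, epithelial-like cells had a median ratio of 1.12 (1.12, 1.09 and 1.11 in the 3 lots), and 17 pairs were above 1 in every lot. Upk3b with Tm4sf5 were found together in 29.2%, 28.2% and 27.6% of epithelial-like cells, against products of 25.2%, 24.4% and 23.5%. Krt8 with Krt18 had a ratio of 1.18 ± 0.0133. The highest ratio was Krt19 with Lrrn4, 1.28 ± 0.0888, and the lowest was Krt8 with Lrrn4, 0.849 ± 0.0498, which was below 1 in each lot. Within cluster 6 alone the median was 1.05 and 9 pairs were above 1 in every lot, and in clusters 7, 9 and 10 it was 1.13, 1.17 and 1.07. Pair ratios ran from 0.891 to 1.11 within cluster 6 and from 0.960 to 1.19 within cluster 10. They ran from 0.872 to 1.29 within cluster 7 and from 0.940 to 1.72 within cluster 9. The part of differences between clusters in the ratios of the whole class was not tested.

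In pre-granulosa-like cells, the pair of Krt8 and Krt18 was found together in 11.1%, 13.2% and 13.8% of cells, against products of 8.80%, 10.3% and 11.2%, a ratio of 1.26 ± 0.0210. The median over the 21 pairs was 1.30 there and 3.77 in stromal-like cells, where 20 pairs were above 1 in every lot. Without called doublets the stromal-like median was 4.22. In both classes most of the pairs involve genes found in a few percent of cells. Epithelial-like cells had UMIs of 2.75 ± 0.130 members per cell, 31.9% ± 5.10 had 4 or more and 7.54% ± 0.279 had none. Pre-granulosa-like cells had 0.866 ± 0.0379 members per cell and 0.560% ± 0.108 had 4 or more, and stromal-like cells had 0.304 ± 0.0188 and 0.654% ± 0.121 (0.448% ± 0.135 without called doublets).

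**Figure D5:**
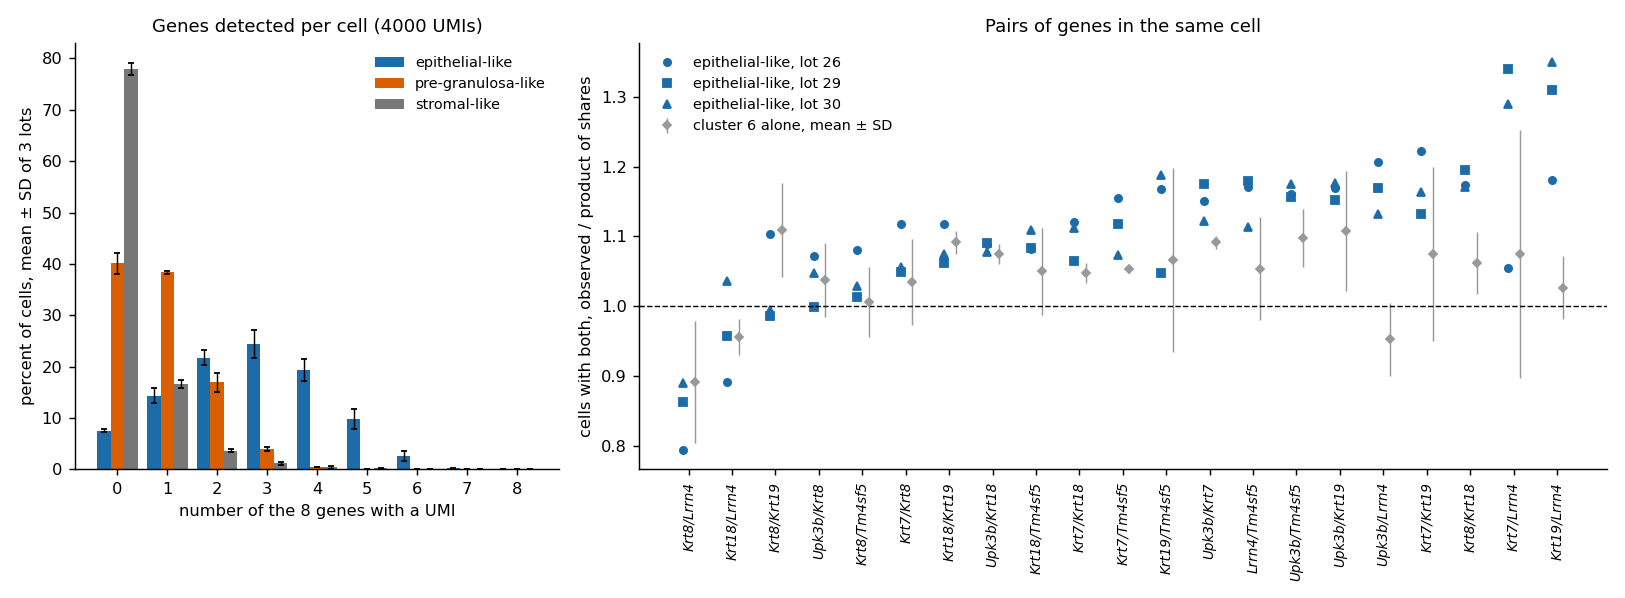
Left, percent of cells (vertical axis) by the number of members with a UMI after thinning to 4000 UMIs, mean of 3 lots with the SD as bars. Right, the ratio of the share with both genes to the product of the single shares for 21 pairs in epithelial-like cells, with 1 blue point per lot, and grey diamonds for cluster 6 alone (mean, SD as bars). Epithelial-like cells average 2.75 members, and the pair ratios lie around 1.12, from 0.849 for Krt8 with Lrrn4 to 1.28 for Krt19 with Lrrn4.

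Over 65 sums of a cluster and a lot, Pearson's r of log2(CPM + 1) between members was 0.879 for Upk3b with Tm4sf5, 0.864 for Krt8 with Krt18, 0.843 for Krt7 with Krt19 and 0.278 for Upk3b with Krt8. These describe sums that share libraries and depth, and no p is given. Krt7 lay between the others, at 0.804 with Upk3b, 0.719 with Lrrn4, 0.710 with Krt18 and 0.656 with Krt8, and Krt19 stood at 0.605 with Krt18. Msln, with few UMIs, was at 0.21 to 0.50 with the others. Outside the members and the lists of related genes, the genes closest to the members' mean among 13306 genes were Stk26 (r = 0.862), Myrf (0.854), Ildr2 (0.844), Crb2 (0.824) and Tmem151a (0.814). Ildr2 and Crb2 were naming markers of the epithelial-like class, but r was taken over clusters, so the names did not enter it. The genes named here as closest were not held out of the clustering and could shape the clusters. The part of this in their likeness was not tested. Stk26, a kinase gene, stood at 103 ± 10.2 CPM in epithelial-like cells. It stood at 16.6 ± 1.58 CPM in pre-granulosa-like and 11.2 ± 1.21 CPM in stromal-like cells.

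Lists of related genes place the members among their families. Their counts stand beside the shares of all genes called higher and lower. These were 19.9% and 24.1% for epithelial-like against pre-granulosa-like cells, and 13.5% and 16.1% for epithelial-like against stromal-like cells. They were 25.2% and 22.6% for pre-granulosa-like against stromal-like cells, and 16.1% and 22% for Sertoli-like against pre-granulosa-like cells. Of the 47 relatives of the members, keratin and uroplakin genes among them, 14 passed the filter on low counts, and 6 were higher and 4 lower in epithelial-like than in pre-granulosa-like cells (median log2 fold change -0.03, against -0.04 over all genes). Upk1b, a uroplakin tetraspanin, averaged 6.69 ± 1.38 CPM in epithelial-like and 0.0902 ± 0.0948 CPM in pre-granulosa-like cells (log2 fold change 5.95 ± 0.46, adjusted p = 2.37e-11). Its pre-granulosa-like lots ran from 0.0341 to 0.200 CPM, where 3 UMIs make 0.0551 to 0.102 CPM, so the size of this fold change rests on few UMIs. Krt14, a type I keratin of basal epithelium, averaged 24.6 ± 1.38 and 0.507 ± 0.0832 CPM (5.51 ± 0.34, adjusted p = 5.30e-15), and its basal type II partner Krt5 was at 0.0162 CPM in epithelial-like cells. Krt17 (log2 fold change 4.86 ± 0.44) and Tm4sf1, a relative of Tm4sf5 (4.26 ± 0.29), were also higher. Krt20 went the other way, at 13.4 ± 0.977 CPM in pre-granulosa-like and 3.96 ± 0.279 CPM in epithelial-like cells. The other uroplakin genes Upk1a, Upk2, Upk3a and Upk3bl averaged at most 0.459 CPM in epithelial-like cells.

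In the other comparisons, 7 relatives were higher and 4 lower in epithelial-like than in stromal-like cells (median 0.83, against 0.01), led by Krt14 (log2 fold change 4.32), Krt15 (3.73), Krt17 (3.59) and Upk1b (3.42). Pre-granulosa-like cells had 3 higher and 4 lower than stromal-like cells (median -0.53, against 0.02), with Krt20 (3.09) and Lrrn1 (2.11) higher and Tm4sf1 (-3.17) and Upk1b (-2.53) lower. Sertoli-like cells had 1 higher and 5 lower than pre-granulosa-like cells (median -0.68, against -0.12), Krt20 (-3.65), Lrrn3 (-3.16), Lrrn1 (-2.86) and Krt1 (-2.68) being the lowest. In Sertoli-like cells no lot exceeded 1.38 CPM for Krt20, 0.551 CPM for Lrrn3 or 0.722 CPM for Krt1. A count of 3 UMIs makes 2.17, 0.826 and 11.1 CPM there in lots 26, 29 and 30, so these fold changes rest on few UMIs.

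Of 16 other mesothelial or surface epithelium genes, 14 were tested, and 4 were higher and 5 lower in epithelial-like than in pre-granulosa-like cells (median -0.09). Among all genes 19.9% were called higher and 24.1% lower there. Muc16, the mucin that binds mesothelin, averaged 11.1 ± 4.17 CPM against 0.828 ± 0.214 CPM (log2 fold change 3.65 ± 0.30, adjusted p = 3.85e-11). Efemp1, an extracellular matrix gene (3.20 ± 0.41), and Dpp4, a membrane peptidase gene (2.80 ± 0.31), were higher and Prr15 lower (-2.75 ± 0.30). The list thus did not move as 1 group, and Wt1, the transcription factor of the coelomic epithelium, averaged 299 and 285 CPM in epithelial-like and pre-granulosa-like cells and was not called. Against stromal-like cells 9 were higher and 3 lower (median 1.41), with Muc16 (3.80), Podxl (2.60), Lgr5 (1.99) and Cav1 (1.96) the largest. Between pre-granulosa-like and stromal-like cells 8 were higher and 4 lower (median 1.38), with Efemp1 lower (-4.91) and Lgr5 (2.80), Cav1 (2.68) and Rspo1 (2.55) higher. Sertoli-like cells had 2 higher and 5 lower than pre-granulosa-like cells (median -1.09), Cav1 (-3.52), Rspo1 (-2.96) and Ptgis (-2.72) lower and Aldh1a1 (2.95) higher.

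Of 12 genes of desmosomes, the junctions to which keratin filaments attach, and of linked proteins, 9 were tested. In epithelial-like against pre-granulosa-like cells 2 were higher and 2 lower (median 0.03), where 19.9% of all genes were called higher and 24.1% lower. Dsp, encoding desmoplakin, averaged 14.3 ± 2.67 against 5.01 ± 0.291 CPM (log2 fold change 1.45 ± 0.17, adjusted p = 9.42e-09), and Evpl was higher (0.62), while Pkp2, encoding a plakophilin, was lower (6.67 ± 1.64 against 24.5 ± 1.66 CPM, log2 fold change -1.92 ± 0.17, adjusted p = 4.81e-11) and Plec was lower (-0.64). Against stromal-like cells, where 13.5% and 25.2% of all genes were called higher in epithelial-like and pre-granulosa-like cells, 6 of the 9 tested were higher and 1 lower in epithelial-like cells (median 1.95; Dsp 2.92, Dsc2 2.58, Dsg2 2.15 and Perp 2.07) and 7 higher and 1 lower in pre-granulosa-like cells (median 1.47; Dsc2 2.55, Pkp2 2.55, Dsg2 2.25 and Perp 1.92), although Perp was below 1 CPM in all 3 classes. Sertoli-like cells had 5 higher and 2 lower than pre-granulosa-like cells (median 0.70), Dsp (3.12) and Pkp4 (1.08) higher and Evpl (-1.73) and Dsc2 (-1.31) lower.

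Of 8 other intermediate filament genes 7 were tested, and all 7 were called between epithelial-like and pre-granulosa-like cells, 5 higher and 2 lower (median 1.41). Among all genes 19.9% were called higher and 24.1% lower in this comparison. Nes, encoding nestin, averaged 11.9 ± 2.05 against 1.22 ± 0.218 CPM (log2 fold change 3.19 ± 0.19), Des, encoding desmin, was higher by 2.01, and the lamin genes Lmnb1 (1.56) and Lmnb2 (1.41) were higher. Vim, the filament gene of mesenchymal cells, was lower, at 718 ± 67.1 CPM against 1272 ± 110.1 CPM. Vim was thus high in both classes beside the keratins. The classes also differed in cycling state. Cycling markers, as a mean log2 level against the median cluster, stood at 2.79 and 2.96 in epithelial-like clusters 7 and 9. They stood at -1.43 and -0.97 in clusters 6 and 10, and at -2.38 to -2.12 in the pre-granulosa-like clusters. The part of cycling in the fold changes of filament genes was not tested. Against stromal-like cells 1 was higher and 4 lower (median -0.83), Des (-2.01), Nes (-1.95), Synm (-0.93) and Vim (-0.83). Pre-granulosa-like cells had none higher and 5 lower than stromal-like cells (median -0.70), led by Nes (-5.14), Des (-4.02), Lmnb1 (-1.35) and Lmnb2 (-0.70), and Sertoli-like cells had 5 higher and none lower than pre-granulosa-like cells (median 0.96), with Nes (4.04), Synm (3.03), Lmnb1 (1.06) and Lmnb2 (0.96).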

How the data were processed

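Single-cell libraries of 3 FOSC lots were analysed from UMI count tables, genes by barcodes, that the authors deposited as unnormalised counts. Per the paper's methods and the labels, reads were handled with UMI-tools, aligned with STAR 2.7 to GRCm38 and assigned with featureCounts 2.0.1; the strand setting is not given in the sources used here. Barcodes with 200 to 9000 genes and at most 10% mitochondrial UMIs were kept (9711, 8553 and 10707). Cells were clustered in Seurat 5.3.0 (R 4.3.3; 2000 variable genes, of which 1973 stayed after any of the 91 held-out genes were removed, 50 principal components, resolution 0.8). The members and the lists, also held out, were chosen with earlier results of these data known. Genes that vary with the held-out genes still shaped the clusters. Clusters were named from marker lists. Doublets were called with Scrublet in scanpy 1.11.5 (566, 347 and 635 cells) and kept. 1 cluster of low UMIs (709 cells) stayed unnamed, and the neural-crest-like class (9 cells in lot 30) was not fitted.

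UMIs were summed by class and lot (11 classes, 33 sums, the smallest of 184947 UMIs) and the sums went into quasi-likelihood fits of edgeR 4.0.16 with TMM factors and the filterByExpr filter, no lot term, and Benjamini-Hochberg adjustment over all genes at 0.05. Alternatives were DESeq2 1.42.0, RLE factors, no low-count filter, lot as a replicate block, each lot left out, called doublets removed, held-out genes put back, resolutions 0.4 and 1.2, and thinning to 8000 UMIs. The lots pair the classes, since each lot is 1 library: over 18 pairs of class sums the correlation of deviations had a median of 0.378, and all 18 were over 0.1. Named were the members, of each list at most 4 called genes with the largest absolute fold change, and the 5 genes most like the members' mean; Wt1, Krt5, Bnc1, Nkain4, the uroplakin relatives, Vim beside its list and Krt20 in the first comparison were named after their values were seen. Exact Clopper-Pearson 95% intervals of the shares, kept with the tables, and the floor of 3 UMIs cover counting error only. Promoter windows are from RefSeq. The edgeR script was tested on simulated data.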

Additional observations from a re-analysis of the deposited data

How the results depend on the processing

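Of the single-gene values under the alternatives, tests and levels together, 342 stayed the same. For a test this means its direction and side of the threshold, for a level a shift of at most its SD over lots. Of the tests 10 became weaker, 9 stronger and 10 turned. The 1 level that moved by more than its SD was Krt7 in epithelial-like cells (196 CPM without called doublets). Of the summary values, most of them counts of called genes or members, 94 stayed the same and 10 moved. A count was the same if it stayed within a fixed fold of the main count, which is a wide limit. For epithelial-like against pre-granulosa-like cells, 4129 calls without lot 30 in place of 5715 counted as the same. For the summed level of the members and the co-detection median the limit was the SD over lots. Leaving out 1 of 3 lots cannot move a level by more than that SD, so these levels were bound to stay and show no stability. With lot as a replicate block, 6543 genes were called between epithelial-like and stromal-like cells in place of 3844, and 1 Sertoli-like member was called in place of 0. Leaving out 1 lot gave 2348 (without lot 30) to 3651 calls for epithelial-like against stromal-like cells, 0 to 1 members for Sertoli-like cells, and a co-detection median of 1.0966 to 1.1164. In Sertoli-like cells 1 member was called with no low-count filter, 1 with the held-out genes put back and 3 without called doublets. Thinning to 8000 UMIs gave a co-detection median of 1.095 in place of 1.116. Against pre-granulosa-like cells, epithelial-like Krt8 turned over the left-out lots from 0.22 to -0.074. Between pre-granulosa-like and stromal-like cells, Krt19 turned to -0.042 with the held-out genes put back (adjusted p = 0.92), where Lrrn4 had an adjusted p of 0.381, and Tm4sf5 ran from -0.34 to 0.079 over the left-out lots and was 0.23 without called doublets. In Sertoli-like cells, Upk3b turned to -0.71 without called doublets, Krt8 was 0.0091 in DESeq2 and -0.21 to 0.067 over the left-out lots, Krt18 was -0.027 with the replicate block and -0.17 to 0.31 over the left-out lots, and Krt19 was -1.35 to 0.38 over the left-out lots. The cause was not tested. The replicate block changed no other call of a member. Precision is limited by the 45 Msln UMIs in epithelial-like cells and by the 16 Sertoli-like cells of lot 30.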
